A study of Mus musculus with 12 samples.

Results

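The p53 target genes described here are 35 genes taken by symbol from the 32285 genes listed in the deposited matrices, and all 35 were found. They were listed because 2 of them, Phlda3 and Ephx1, had been higher in endothelium of the Cre-positive libraries, so the genotype difference in endothelium was used in choosing them and is described below without a test. The mice were C57BL/6 animals of 7 to 10 weeks that all carried floxed ATG12 alleles (ATG12 fl/fl), were either positive or negative for CDH5 CreER, a tamoxifen-inducible Cre recombinase driven in endothelial cells, and all received tamoxifen 5 times. Lymph nodes were taken after vehicle (acetone and olive oil) or on day 3 or day 7 after 50 ul of 4% oxazolone, a contact sensitiser, on the abdomen. Cells were split with CD45 beads into an unbound fraction, labelled CD31, and a bound fraction, labelled CD45, and droplet 3' single-cell RNA sequencing gave 12 libraries, 1 for each genotype, treatment and fraction. A genotype at one treatment is therefore a single library. The cells found go against this split in part: 8606 fibroblast-like cells, a type that lacks CD45, lay in the libraries labelled CD45. The libraries labelled CD31 held 5951 B cell-like and 5479 T cell-like cells beside the endothelium. The fibroblast-like class was drawn from the CD45 libraries alone. A CD31 cluster of 276 cells, called pericyte-like, had 8 of 12 fibroblast markers raised beside 9 of 9 pericyte and smooth muscle markers. It may therefore not hold pericytes alone. Fractions are therefore named by their labels, and cell classes by their markers. Some names rest on few markers raised against the other cells of a fraction. The Cxcl13-led fibroblast-like cluster had 4 of 12 fibroblast markers raised and 8 of 9 pericyte and smooth muscle markers. The cycling blood endothelial-like cluster had 0 of 9 pan-endothelial and 3 of 7 tip cell markers raised.

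p53, encoded by Trp53, is a transcription factor that is held at a low level by Mdm2, a ubiquitin ligase that is itself a p53 target, and by the related inhibitor Mdm4. When p53 is stabilised, by DNA damage among other stresses, it induces genes for cell cycle arrest, apoptosis, DNA repair and metabolism. ATG12 is part of the conjugation machinery that builds autophagosomes.

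The libraries held 36724887 to 76186801 unique molecular identifiers (UMIs, counted RNA molecules), and 5698 to 10553 cells each after filtering. Any 2 libraries shared at most 28 cell barcodes. Atg12 counts did not fall with the Cre-positive label: in all blood endothelial-like cells it stood at 52.4, 46.1 and 51.6 CPM (the gene's UMIs summed over the class in a library and scaled to the same total in each) in the Cre-negative vehicle, day 3 and day 7 libraries and at 74.2, 60.3 and 64.2 CPM in the Cre-positive ones. A 3' tag that lies outside the deleted part checks nothing, where that part lies is not given in the sources used here, and the genotypes below are those of the labels. The libraries also differed in sex: among HEV-like cells, those with Y-linked UMIs and no Xist UMI made up 80.4% in the Cre-positive vehicle library and 27.1% to 47.7% in the other 5, so animals of both sexes were pooled in some libraries. Values within cells with Y-linked UMIs alone are therefore given below. Endothelial-like clusters were named from markers: HEV-like cells (high endothelial venules, where lymphocytes enter the node), capillary-like, arterial-like, tip-like and cycling cells, 3 further blood endothelial clusters called by their leading genes Nav3, Atf3 and Penk, and lymphatic endothelial-like cells. No separate venous-like cluster was found. A cluster of low UMI counts, most of whose cells came from the Cre-positive day 3 CD31 library, was left unnamed and out of all classes.

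The 250 bases before a start site are shown for 5 genes that the results turn on, from RefSeq on GRCm38.p6. They show which of the genes carry the p53 half-site letters next to that start. They lie at chr17:29090729-29090978 (+ strand) for Cdkn1a, chr11:40755287-40755536 (- strand) for Ccng1, chr10:117710759-117711008 (- strand) for Mdm2, chr1:135765835-135766084 (+ strand) for Phlda3 and chr1:181017570-181017819 (- strand) for Ephx1. Capitals mark matches to the 10-base p53 half-site consensus, which reads the same on both strands.
Cdkn1a: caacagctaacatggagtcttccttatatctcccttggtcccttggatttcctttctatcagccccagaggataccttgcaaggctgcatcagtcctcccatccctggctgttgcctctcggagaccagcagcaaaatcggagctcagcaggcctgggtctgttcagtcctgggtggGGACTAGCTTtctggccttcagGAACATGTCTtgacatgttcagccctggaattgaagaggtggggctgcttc
Ccng1: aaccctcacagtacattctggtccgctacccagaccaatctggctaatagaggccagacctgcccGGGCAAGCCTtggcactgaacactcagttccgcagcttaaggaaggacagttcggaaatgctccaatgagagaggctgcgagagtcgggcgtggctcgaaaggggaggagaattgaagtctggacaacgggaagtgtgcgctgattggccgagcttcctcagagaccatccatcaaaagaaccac
Mdm2: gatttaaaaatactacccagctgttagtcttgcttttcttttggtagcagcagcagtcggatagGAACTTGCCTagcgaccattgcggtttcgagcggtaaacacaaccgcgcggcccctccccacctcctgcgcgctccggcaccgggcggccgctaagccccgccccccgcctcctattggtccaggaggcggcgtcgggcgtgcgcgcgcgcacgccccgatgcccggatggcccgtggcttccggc
Phlda3: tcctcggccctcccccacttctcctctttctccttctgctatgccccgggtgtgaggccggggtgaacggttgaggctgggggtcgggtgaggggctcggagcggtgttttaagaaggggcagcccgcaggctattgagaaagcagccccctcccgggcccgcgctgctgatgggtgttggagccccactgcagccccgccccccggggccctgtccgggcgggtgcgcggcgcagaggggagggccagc
Ephx1: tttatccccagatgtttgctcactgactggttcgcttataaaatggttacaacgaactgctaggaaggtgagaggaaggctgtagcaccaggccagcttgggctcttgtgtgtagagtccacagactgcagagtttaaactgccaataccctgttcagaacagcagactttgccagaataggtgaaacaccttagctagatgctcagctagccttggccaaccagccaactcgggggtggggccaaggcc
Cdkn1a held 2 matches, Ccng1 and Mdm2 1 each, and Phlda3 and Ephx1 none in these windows. Another listed start of Cdkn1a, with its window at chr17:29093519-29093818, held 0 matches. Over windows of 300 bases (250 before to 50 after a start), 26 members had an entry, and 11 of them (42.3%) held a match at 1 or more starts, against 9.55% of all 27025 genes with an entry. A gene with more starts has more windows to match: these members had 38 windows and all genes 32851, of which 8.36% held a match. The members were listed as p53 targets, so nothing is read from the higher share. Phlda3 lies on chr1:135766119-135769136 (+ strand) and Ephx1 on chr1:180976210-181020904 (- strand) in GENCODE M21 on GRCm38, and no other annotated gene overlaps either. The Ephx1 window shown lies before the RefSeq start and inside the longer extent that GENCODE gives the gene. Sesn2 overlaps Gm12981 on the same strand, and Sulf2, Pltp, Ddb2, Polk, Rrm2b, Gadd45a, Ei24, Plk3 and Gls2 overlap a gene on the other strand, so their counts are less certain. A match is a description of the letters and not a measured binding site.

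Phlda3, which encodes a pleckstrin homology domain protein that restrains Akt signalling, was higher in the Cre-positive library of every pair in HEV-like and capillary-like cells. In HEV-like cells it stood at 9.8 CPM (33 UMIs) against 46.9 CPM (157 UMIs) after vehicle, 20.4 against 81.5 CPM on day 3 and 9.92 against 50.7 CPM on day 7, Cre-negative first. The 3 Cre-positive values lay above all 3 Cre-negative values. The log2 ratios were 2.26 (95% counting interval 1.71 to 2.85), 2.0 (1.70 to 2.31) and 2.35 (1.95 to 2.77). These intervals cover counting error only, because each value is 1 library. In capillary-like cells Phlda3 stood at 5.36 against 38.2 CPM, 9.57 against 42.6 CPM and 3.67 against 28.7 CPM in the same order, again without overlap. The capillary-like class joins 2 clusters, and 34.87% of the cells of the larger one came from the Cre-negative day 3 library. The part of their mix in the capillary-like values was not tested. Lymphatic endothelial-like cells had more Phlda3 in the Cre-negative libraries (42, 65 and 35.7 CPM) and a smaller difference, with 50.6, 104 and 71.8 CPM in the Cre-positive ones, and there the groups overlapped. In arterial-like cells the vehicle pair was almost level, at 44 and 46.6 CPM, and the day 3 and day 7 pairs were 61.6 against 116 CPM and 43.9 against 87.8 CPM. The arterial-like class joins 2 clusters, 1 of which also carries capillary markers, and its summed capillary markers were 12172, 12694 and 9736 CPM in the Cre-negative and 16519, 6445 and 8360 CPM in the Cre-positive libraries. The part of this shift in the arterial-like values was not tested.

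Of HEV-like cells, those with at least 1 Phlda3 UMI made up 7.96% in the Cre-negative and 22.3% in the Cre-positive vehicle library, 15.3% and 25.2% on day 3, and 8.94% and 25.1% on day 7. Their median depth was 6303.5 to 10448 UMIs a cell, lowest in the Cre-positive day 3 library. After each cell was thinned to 1000 UMIs these Phlda3 shares were 1.06% and 3.93%, 2.39% and 7.52%, then 1.38% and 3.30%, in the same order. B cell-like cells, taken as a class without the gene, held a Phlda3 UMI in the CD31 libraries in at most 0.255% of cells at median depths of 2930 to 3623 UMIs. Capillary-like cells, at 1878 to 2811 UMIs, held one in 1.67%, 2.25% and 0.906% of cells of the Cre-negative and 9.07%, 8.01% and 7.83% of the Cre-positive libraries.

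Ephx1, an epoxide hydrolase that detoxifies reactive epoxides, was low in HEV-like cells of the Cre-negative libraries, at 4.75, 3.33 and 4.1 CPM, and stood at 26.3, 12.7 and 15.5 CPM in the Cre-positive ones, with no overlap. The log2 ratios of Ephx1 there were 2.47 (1.69 to 3.34), 1.93 (1.17 to 2.76) and 1.92 (1.24 to 2.62), from 16 to 88 UMIs a library. In capillary-like cells the Ephx1 level was higher throughout and the difference was not seen on day 7: 42.6 against 100 CPM after vehicle, 64.1 against 110 CPM on day 3 and 83.7 CPM in both libraries on day 7. These Ephx1 levels stand beside its level in free RNA (barcodes under 100 UMIs) of the same CD31 libraries, which was above that of HEV-like cells and also higher with the Cre-positive label: 23.9, 14.3 and 30.6 CPM against 38.5, 19.2 and 52.7 CPM. With that profile subtracted at 10% of the class, the Ephx1 log2 ratios in HEV-like cells were 3.25, 2.51 and 3.30. The 10% is an assumed share and was not estimated. It takes away a large part of the few Cre-negative UMIs, so these ratios are not read as a larger difference. In B cell-like cells of the CD45 libraries Ephx1 was 28.7 to 50.6 CPM, beside 15.8 to 38.8 CPM in the free RNA of those libraries.

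**Figure D1:**
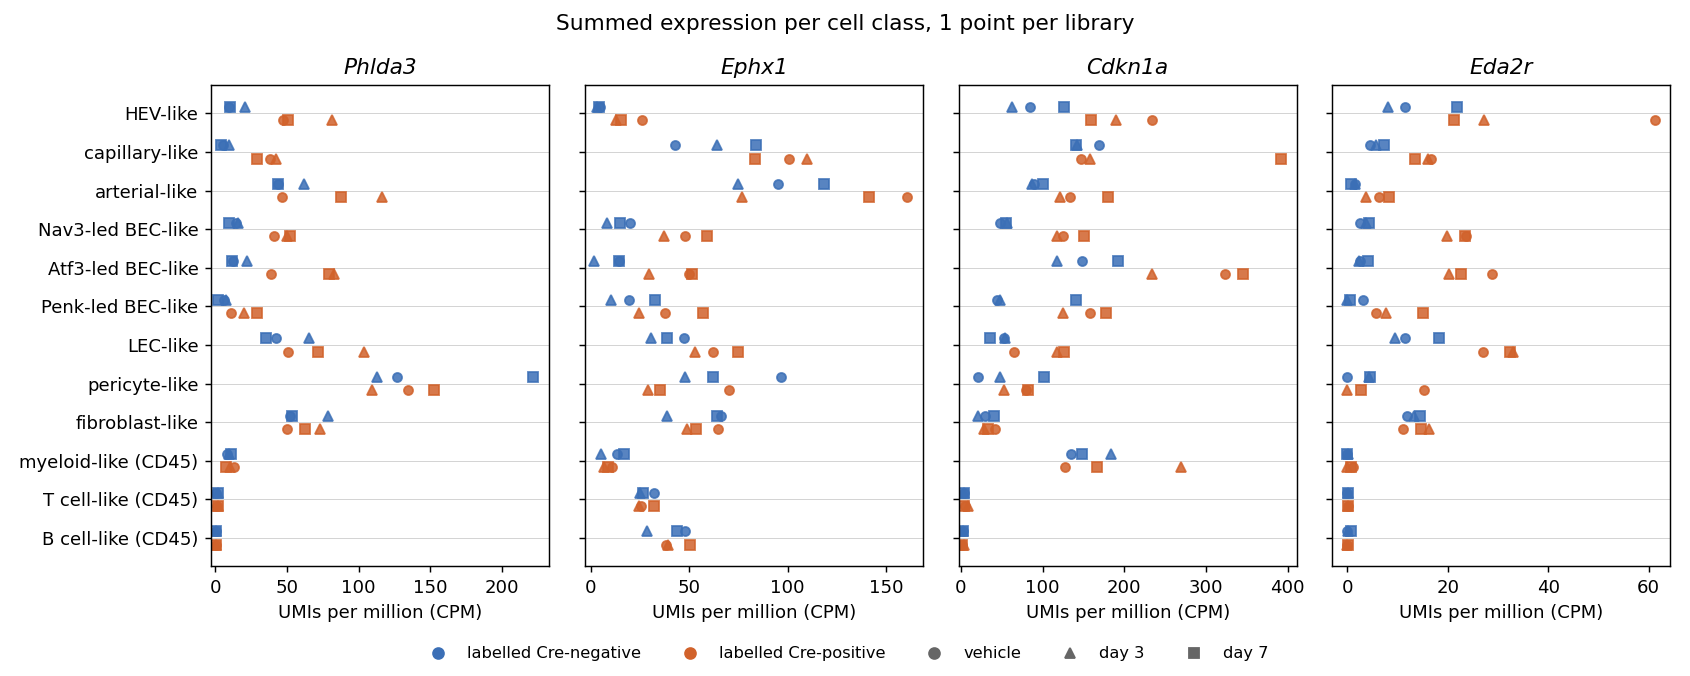
Summed expression in CPM (x axis) of Phlda3, Ephx1, Cdkn1a and Eda2r in each cell class (rows); each point is 1 library, blue labelled Cre-negative and orange labelled Cre-positive, with circles for vehicle, triangles for day 3 and squares for day 7. Phlda3 of the Cre-positive libraries lies to the right in HEV-like cells (46.9 to 81.5 against 9.8 to 20.4 CPM) and among the Cre-negative values in fibroblast-like cells.

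The transcript of the factor itself did not follow this pattern, and p53 protein was not measured. Trp53 stood at 77.5, 95.3 and 64.4 CPM in HEV-like cells of the Cre-negative libraries and at 60.7, 89.9 and 80.2 CPM in the Cre-positive ones, and the groups overlapped. Mdm2 was higher in each Cre-positive library of HEV-like cells, at 46.3, 39.4 and 38.4 CPM against 31.8, 28.1 and 32.4 CPM, which was less than 1.5-fold in each of the 3 pairs. Mdm4 differed little, with log2 ratios of 0.04, -0.12 and 0.01 in the order vehicle, day 3 and day 7.

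Of the genes for growth arrest, Cdkn1a, the p21 inhibitor of cyclin-dependent kinases, stood at 84.9, 62.7 and 126 CPM in HEV-like cells of the Cre-negative libraries and at 233, 190 and 159 CPM in the Cre-positive ones. The log2 ratios of Cdkn1a were 1.46, 1.60 and 0.33, with the day 7 pair the closest of the 3. In capillary-like cells the order was different: Cdkn1a was 169 against 146 CPM after vehicle, 143 against 158 CPM on day 3 and 141 against 392 CPM on day 7. Ccng1, a cyclin G that feeds back on p53, was 17.5, 18.5 and 16.4 CPM in Cre-negative and 40.4, 41.9 and 26 CPM in Cre-positive HEV-like cells, without overlap. Gdf15, a secreted stress cytokine, was close to the counting floor in Cre-negative HEV-like cells, with 1, 10 and 1 UMIs, against 42, 52 and 3 UMIs in the Cre-positive libraries.

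Of the genes for apoptosis, Eda2r, a receptor of the tumour necrosis factor receptor family, was 11.6 against 61.3 CPM after vehicle and 8.14 against 27.2 CPM on day 3 in HEV-like cells, but 21.8 against 21.2 CPM on day 7. Bax, which permeabilises the outer mitochondrial membrane, was 115, 172 and 116 CPM in Cre-negative and 158, 258 and 200 CPM in Cre-positive HEV-like cells, a difference in 1 direction in each pair that overlapped between treatments. Aen, an exonuclease, was 14.5, 25.7 and 13 CPM against 19.1, 34.4 and 26 CPM. Among the remaining members, Sesn2, a stress-induced regulator of nutrient signalling, was 2.37, 2.41 and 2.91 CPM in Cre-negative and 8.37, 6.68 and 7.61 CPM in Cre-positive HEV-like cells, and Zmat3, an RNA-binding protein, was 10.7, 10.7 and 7.54 CPM against 16.7, 16.2 and 12 CPM.

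Counted over members, 31 of 35 reached 10 UMIs in the higher library of each pair in HEV-like cells, and 5 of those (Phlda3, Ephx1, Ccng1, Zmat3 and Sesn2) were at least 1.5-fold higher in all 3 Cre-positive libraries, with none at least 1.5-fold lower. Over all 11215 genes that reached 10 UMIs the shares were 0.33% higher and 0.143% lower. Zmat3 lay close to the limit, at 1.51-fold to 1.60-fold. With TMM scaling 3 members were left (Phlda3, Ephx1 and Sesn2), since Ccng1 and Zmat3 stood at 1.43-fold and 1.44-fold on day 7. The share of all genes under TMM scaling is not given here. The next count is again on the main scaling. In cells with Y-linked UMIs and no Xist UMI it was 2 of 28 (Phlda3 and Ephx1; all genes 0.263%): Ccng1 was 1.46-fold higher on day 7, Zmat3 1.25-fold on day 3, and Sesn2 had only 8 UMIs in each library on day 7. The members were chosen on this contrast, so nothing is read from that difference. The median log2 ratio of the members was 0.54, 0.42 and 0.32 at vehicle, day 3 and day 7, beside 0.010, -0.010 and 0.15 for all genes. The median mitochondrial share of HEV-like cells moved with the genotype, at 1.74%, 1.70% and 1.89% in the Cre-negative and 2.90%, 1.81% and 2.05% in the Cre-positive libraries. It was also higher in each Cre-positive library of fibroblast-like cells (1.57%, 1.52% and 1.66% against 1.95%, 2.69% and 2.03%), and in capillary-like cells it was higher only after vehicle. The Nav3-led (1.96%, 1.95% and 2.31% against 2.86%, 2.64% and 2.41%), Atf3-led, Penk-led, tip-like and lymphatic endothelial-like cells also had a higher mitochondrial share in the Cre-positive library of each pair. Its part in the members' values was not tested. In capillary-like cells 4 of 30 members were at least 1.5-fold higher in all 3 pairs (Phlda3, Ccng1, Eda2r and Sesn2; all genes 0.249%), in arterial-like cells 1 of 29 (Gdf15; all genes 0.127%), in lymphatic endothelial-like cells 3 of 32 (Eda2r, Zmat3 and Gdf15; all genes 0.217%) and in all blood endothelial-like cells 7 of 33 (Cdkn1a, Phlda3, Ccng1, Eda2r, Sesn2, Gdf15 and Sulf2; all genes 0.25%). Sulf2, an extracellular sulfatase, rested on few molecules there, with 19 to 76 UMIs a library. Cells with Y-linked UMIs and no Xist UMI gave 4 of 31 in all blood endothelial-like cells (Phlda3, Ccng1, Sesn2 and Ephx1; all genes 0.145%). There Cdkn1a turned to a log2 ratio of -0.22 on day 7, Gdf15 was 0.591-fold on day 3, Eda2r was 1.12-fold on day 7, and Sulf2 and Gdf15 were under 10 UMIs on day 7. The same cells gave 1 of 30 in lymphatic endothelial-like cells (Eda2r; all genes 0.486%) and 0 of 21 in arterial-like cells (all genes 0.16%). The pooled blood endothelial class differed in make-up, with 158 of 3859 and 545 of 5007 cells Atf3-led on day 3, and the part of this in its counts was not tested. The 4 members that did not reach 10 UMIs in each pair of HEV-like cells were Perp, Gls2, Ak1 and Gdf15. At any size, 17 of the 31 compared members were higher in all 3 Cre-positive libraries of HEV-like cells and 2 (Tnfrsf10b and Gadd45a) were lower, beside 14.8% and 7.38% of all genes.

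Taken one treatment at a time, 14 of 32 members were at least 1.5-fold higher in Cre-positive HEV-like cells after vehicle (all genes 9.11%), 16 of 33 on day 3 (9.08%) and 12 of 31 on day 7 (10.9%). The counts in capillary-like cells were 9 of 30 (6.6%), 8 of 31 (4.64%) and 11 of 31 (8.58%), and in arterial-like cells 6 of 30 (6.2%), 6 of 31 (6.06%) and 12 of 31 (8.11%). Lymphatic endothelial-like cells held 4 of 33 (9.42%), 10 of 32 (7.66%) and 10 of 32 (6.82%). These too use the contrast that chose the members. Members also passed this limit at one treatment outside endothelium, at most 10 in any class listed below. The capillary-like, arterial-like and lymphatic counts above overlap these counts. The shares of all genes also differ between classes, so the counts are not read against each other. In myeloid-like cells of the CD45 libraries it was 7 of 31 (15%), 10 of 32 (20%) and 1 of 32 (15.3%), and in those of the CD31 libraries 2 of 31 (16.1%), 10 of 31 (16.7%) and 2 of 30 (11.6%). Fibroblast-like cells gave 3 of 33 (8.79%), 7 of 34 (13.9%) and 6 of 34 (13.8%). Their Cxcl13-led cluster gave 0 of 31 (10.9%), 10 of 33 (13.9%) and 7 of 33 (16.8%), and 12 of its 31 were lower after vehicle (all genes 12.5%). NK cell-like cells gave 1 of 18 (18.2%), 4 of 19 (20.6%) and 6 of 13 (29%), and pericyte-like cells 2 of 18 (21.6%), 2 of 11 (20.4%) and 5 of 18 (27%). T cell-like cells gave 1 of 29 (10.5%), 6 of 30 (10.6%) and 4 of 30 (13.1%) in the CD45 and 1 of 29 (10%), 4 of 28 (9.26%) and 1 of 29 (5.98%) in the CD31 libraries. B cell-like cells gave 1 of 28 (13.3%), 3 of 28 (12.2%) and 4 of 28 (10.7%) in the CD45 and 2 of 28 (15.5%), 4 of 27 (7.78%) and 3 of 26 (6.18%) in the CD31 libraries. Whether endothelium differs from these classes at one treatment was not tested.

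Other members of HEV-like cells varied in size or direction between treatments. Fas, a death receptor, was 3.86 against 15.8 CPM after vehicle, 13.5 against 11.4 CPM on day 3 and 7.41 against 5.07 CPM on day 7. Pltp, a phospholipid transfer protein, was 194 against 331 CPM, 85.1 against 136 CPM and 307 against 267 CPM, so the day 7 pair lay the other way. Trp53inp1, which promotes p53-dependent stress responses, was 14.5 against 21.5 CPM, 7.59 against 22.9 CPM and 10.1 against 18.4 CPM. Tnfrsf10b, a receptor for the death ligand TRAIL, was lower in each Cre-positive library, at 52, 28.4 and 45.3 CPM against 60.9, 35.5 and 51.1 CPM. Of the repair genes, the log2 ratios of Polk, Xpc and Rrm2b lay between -0.18 and 0.44, and those of Ddb2, with 20 to 37 UMIs a library, between -0.48 and 0.75.

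The other blood endothelial clusters varied in how many members differed. The Nav3-led cluster held 7 of 30 members at least 1.5-fold higher in all 3 pairs (Cdkn1a, Phlda3, Ephx1, Eda2r, Zmat3, Sesn2 and Gdf15; all genes 0.267%) and the Atf3-led cluster 7 of 31 (the same apart from Ccng1 in place of Sesn2; all genes 0.243%). In the Atf3-led cluster Phlda3 stood at 12.5, 21.9 and 11.9 CPM in the Cre-negative and 38.6, 82.5 and 79.1 CPM in the Cre-positive libraries, and Cdkn1a at 148, 118 and 192 against 324, 234 and 345 CPM. Neither gene overlapped between genotypes there. The Penk-led cluster held 3 of 28 (Phlda3, Ephx1 and Eda2r; all genes 0.199%), the tip-like cluster 2 of 16 (Cdkn1a and Phlda3; all genes 0.578%) and the cycling cluster 0 of 15 (all genes 0.118%). The cycling cluster had only 19 cells in the Cre-negative day 7 library, under the minimum of 20 used for the tests, so nothing is read from its count. Gdf15 in arterial-like cells was 0.785 against 32 CPM after vehicle, from 2 and 46 UMIs, 5.46 against 9.95 CPM on day 3 and 1.54 against 14.8 CPM on day 7.

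Lymphatic endothelial cells also express CDH5, and 3 members were at least 1.5-fold higher there in each pair (all genes 0.217%). Eda2r was 11.4, 9.44 and 18.2 CPM in the Cre-negative and 26.9, 32.9 and 32.4 CPM in the Cre-positive libraries. Gdf15 was 25.9, 15.1 and 29.9 CPM against 53.5, 57.9 and 45.3 CPM, and Zmat3 9.92, 9.71 and 12.9 CPM against 16, 19.5 and 22.4 CPM. None of the 3 overlapped. Cdkn1a was 52.2 against 65.2 CPM after vehicle, 54.5 against 117 CPM on day 3 and 35.7 against 126 CPM on day 7. The make-up of the pooled class differed between genotypes: Lyve1-led cells were 72 of 896 and 152 of 732 lymphatic cells after vehicle, and Madcam1-led cells 490 of 1157 and 205 of 1010 on day 7, Cre-negative first. Of the lymphatic clusters, the Ackr4-led one held 3 of 29 such members (Cdkn1a, Eda2r and Zmat3; all genes 0.138%), the Lyve1-led one 2 of 24 (Aen and Gdf15; all genes 0.31%) and the Madcam1-led one 0 of 28 (all genes 0.121%). Aen in the Lyve1-led cluster was 13.5, 15.8 and 8.08 CPM against 20.9, 25.4 and 19.5 CPM.

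Of the 14 other p53 targets, a list of genes that are not members, 13 in HEV-like cells reached 10 UMIs in each pair and 0 of those were at least 1.5-fold higher in all 3 Cre-positive libraries (all genes 0.33%). The same count was 0 of 11 in capillary-like (all genes 0.249%) and 0 of 14 in all blood endothelial-like cells (all genes 0.25%). At these shares a list of this length is near 0 in any case, so nothing is read from the counts. Their median log2 ratios in HEV-like cells were -0.022, -0.080 and 0.17. The counts were also 0 of 11 genes for DNA damage signalling and 0 of 7 cell cycle genes in HEV-like cells, and the same holds for them.

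**Figure D2:**
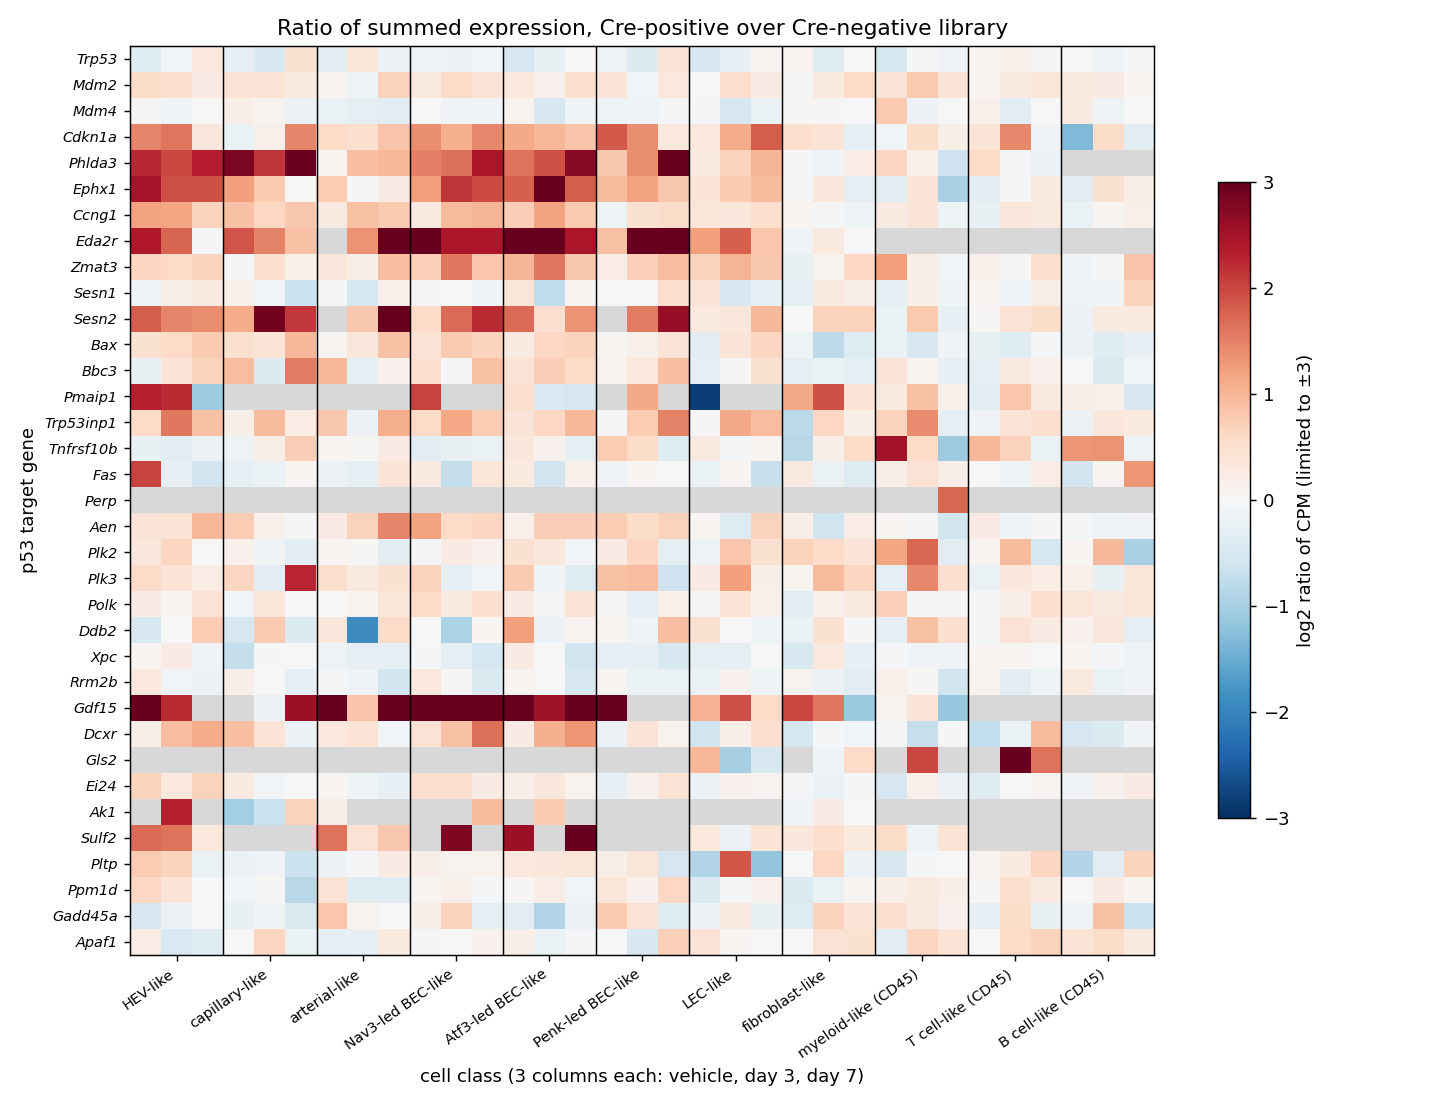
Log2 ratio of summed CPM, Cre-positive over Cre-negative library, for the 35 members (rows) in 11 cell classes (3 columns each, vehicle, day 3 and day 7); grey marks pairs in which neither library reached 10 UMIs and colours stop at 3 in either direction. Phlda3, Ephx1, Eda2r, Sesn2 and Gdf15 are red over most blood endothelial-like classes, and Trp53 and Mdm4 stay pale.

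Outside endothelium the genotype was tested across all genes with edgeR's quasi-likelihood test, treatment as a covariate, in 8 classes. No member was called at an adjusted p under 0.05 in any of them. Fibroblast-like cells came from the CD45 libraries, unlike the endothelium, which came from the CD31 libraries. Depth differed with the label in each CD45 pair. Medians after vehicle, day 3 and day 7 were 4245, 4530 and 3540 UMIs a cell in the Cre-negative and 5586, 6193.5 and 5445 in the Cre-positive libraries. Median mitochondrial shares there were 1.745%, 1.44% and 1.65% against 2.21%, 2.30% and 2.23%. Both differences ran through the CD45 classes compared here, and their part in the values was not tested. In fibroblast-like cells 0 of 34 members were called, of 14939 genes of which 0% were called and 9.27% had an unadjusted p under 0.05; 4 members had an unadjusted p under 0.05 and DESeq2 called 0 members. Phlda3 in fibroblast-like cells was 51.8, 78.8 and 53.6 CPM in the Cre-negative and 50.3, 73 and 62.2 CPM in the Cre-positive libraries, a log2 change of -0.039 (SE 0.12, edgeR adjusted p = 0.93). In T cell-like cells of the CD45 libraries 0 of 29 members were called (all genes 0.0883%), in B cell-like cells 0 of 28 (0.00858%), in myeloid-like cells 0 of 31 (0%) and in NK cell-like cells 0 of 13 (0.615%), with 2, 3, 4 and 1 members at an unadjusted p under 0.05 beside 17.2%, 14.4%, 17% and 9.71% of genes. DESeq2 called 0 members in each. In the CD31 libraries 0 of 29 members were called in T cell-like, 0 of 25 in B cell-like and 0 of 15 in pericyte-like cells, with 0% of genes called in each, and 2, 1 and 0 members at an unadjusted p under 0.05 beside 1.72%, 1.43% and 3.76% of genes. Eda2r in fibroblast-like cells was 11.9, 13.3 and 14.6 CPM in the Cre-negative and 11, 16.3 and 14.7 CPM in the Cre-positive libraries. Cdkn1a there was 29.4, 21.3 and 40.4 CPM against 41.4, 28.4 and 33.4 CPM. Without the day 7 pair 1 of 34 members, Gdf15, was called in fibroblast-like cells (all genes 0.515%). In the Pi16-led fibroblast cluster, 3 of 26 members were at least 1.5-fold lower in all 3 Cre-positive libraries (Phlda3, Eda2r and Gadd45a; all genes 0.554%), with Phlda3 at 35, 56.8 and 47.7 CPM against 8.16, 36.7 and 27.6 CPM. Eda2r, an X-linked gene, rested there on 2 to 31 UMIs a library. The sex make-up of the Pi16-led cells moved with the label in each pair: cells with Y-linked UMIs and no Xist UMI were 10.9%, 3.33% and 4.84% in the Cre-negative and 87.8%, 29.6% and 8.97% in the Cre-positive libraries, and their part in the result was not tested. By the count used for endothelium, 0 members were at least 1.5-fold higher in all 3 pairs in fibroblast-like cells (all genes 0.619%), in their Lepr-led, Cxcl13-led, Gdf10-led and Pi16-led clusters (0.49%, 0.385%, 0.497% and 1.18%) or in pericyte-like cells (1.22%). The count was also 0 in T cell-like, B cell-like and myeloid-like cells of the CD31 libraries (0.231%, 0.121% and 0.572%) and in T cell-like, B cell-like, NK cell-like and myeloid-like cells of the CD45 libraries (0.788%, 1.12%, 1.37% and 1.11%). At these backgrounds a count of 0 among 11 to 33 members is near what all genes gave. Whether the genotype difference in endothelium is larger than that in these classes was not tested.

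Treatment was tested in 6 classes with genotype as a covariate, 2 libraries a treatment. In fibroblast-like cells 4 of 34 members were called on day 3 against vehicle, beside 12% of all 15481 genes, so the members' share was close to the background. At an unadjusted p under 0.05 it was 13 members, beside 30.8% of genes. Phlda3 rose by 0.61 on the log2 scale (SE 0.14, edgeR adjusted p = 0.041) and Bax by 1.00 (SE 0.20, adjusted p = 0.027). Sulf2 fell by 1.81 (SE 0.14, adjusted p = 0.0025) and Plk2, a polo-like kinase, fell by 0.95 (SE 0.21, adjusted p = 0.035). Bax stood at 70.1 and 63.6 CPM after vehicle and at 170 and 98.4 CPM on day 3, Cre-negative first, and Sulf2 at 54.5 and 69 CPM against 14.3 and 20.2 CPM; neither overlapped. The make-up of the class moved with the treatment: Cxcl13-led cells were 142 of 1342 and 182 of 1544 fibroblast-like cells after vehicle and 913 of 1506 and 547 of 1155 on day 3. Without the Cre-negative or the Cre-positive day 3 library 0 of 34 members were called (all genes 0% and 0.0126%), and without the Cre-positive vehicle or the Cre-negative day 7 library 9 and 8 were (all genes 19.2% and 18.9%). Within Lepr-led cells alone, a comparison added after the data were seen, 0 of 32 members were called by edgeR, beside 0% of all genes, so the count says nothing about the members. There Phlda3 changed by 0.23 (adjusted p = 0.73), Bax by 0.65 (adjusted p = 0.40), Sulf2 by -1.06 (adjusted p = 0.21) and Plk2 by 0.16 (adjusted p = 0.91). Within Cxcl13-led cells 5 of 32 members were called (Aen, Bax, Fas, Gadd45a and Gdf15; all genes 10.8%), with Bax at 0.86 (edgeR adjusted p = 0.026), while Phlda3 was 0.65 (adjusted p = 0.086), Sulf2 -0.43 (adjusted p = 0.56) and Plk2 -0.42 (adjusted p = 0.79). In all fibroblast-like cells together, 9 of 10 cell cycle genes and 4 of 13 damage signalling genes were called higher on day 3. Of the 14 other p53 targets, Rps27l and Dram1 were called higher there and Steap3 lower. These stand beside 12% of all genes called in either direction. On day 7, 0 of 34 members were called (all genes 0.252%; 3 at an unadjusted p under 0.05, all genes 6.61%; DESeq2 0).

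**Figure D3:**
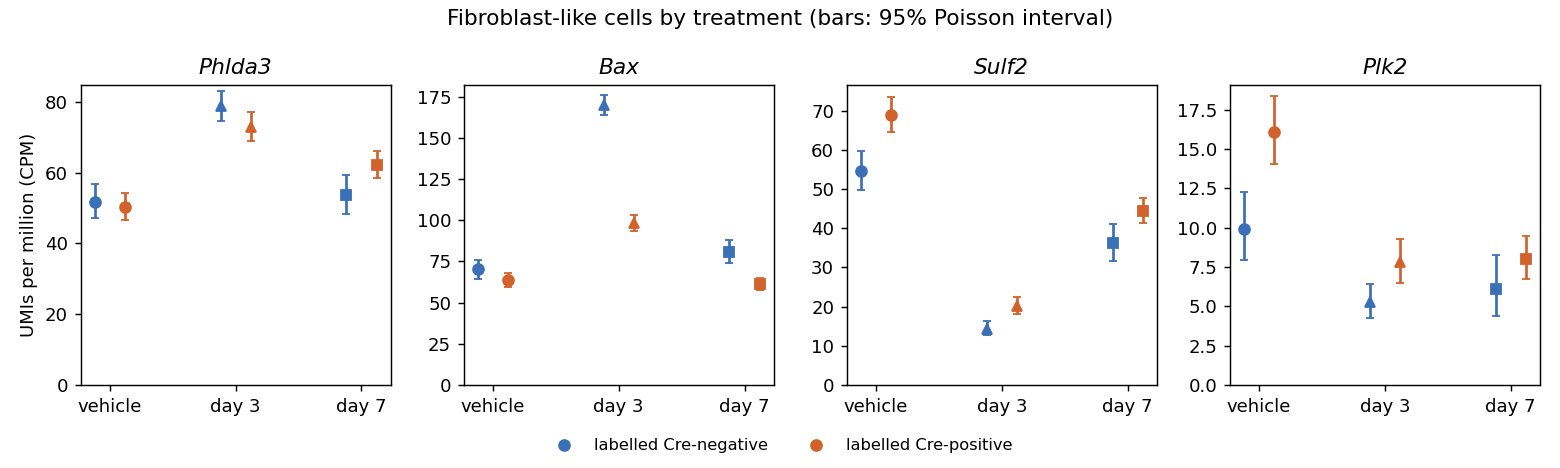
Summed expression in CPM (y axis) of the 4 members called on day 3 in fibroblast-like cells, by treatment (x axis), 1 point per library, blue labelled Cre-negative and orange labelled Cre-positive; bars are exact 95% Poisson intervals and cover counting error only. Sulf2 is lowest on day 3 (14.3 and 20.2 CPM) in both genotypes.

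In HEV-like cells 0 of 32 members were called on day 3 by edgeR (all genes 0.757%), with 10 members at an unadjusted p under 0.05 (all genes 23.6%) and 2 called by DESeq2 (all genes 3.19%); Phlda3 had a log2 change of 0.91 (SE 0.17, adjusted p = 0.052). Without the Cre-negative vehicle, the Cre-negative day 7 or the Cre-positive day 7 library, 9, 9 and 8 of 32 members were called, while the calls over all genes also grew, to 12.7%, 12.4% and 11.6%. On day 7, 0 of 32 were called (all genes 0%; 1 at an unadjusted p under 0.05, all genes 3.18%; DESeq2 0). In capillary-like cells Gdf15 was the 1 member of 31 called on day 3 (all genes 0.145%, and 8.22% at an unadjusted p under 0.05): it stood at 1.13 and 1.96 CPM after vehicle and at 16.3 and 14.3 CPM on day 3, and it rose by 3.40 (SE 0.53, edgeR adjusted p = 0.020). Without the Cre-negative day 3 library that call was lost (2.49, adjusted p = 1.00). DESeq2 called 0 members there, with no adjusted p for Gdf15, and Y-linked cells alone gave 0. On day 7, 0 of 31 were called (all genes 0.0364%; 4 at an unadjusted p under 0.05, all genes 2.89%; DESeq2 0). In lymphatic endothelial-like cells 0 of 32 members were called on either day (all genes 0%; 3 and 0 at an unadjusted p under 0.05, all genes 4.85% and 0.774%; DESeq2 0). In T cell-like cells of the CD45 libraries 0 of 29 (all genes 0%; 3 and 1 at an unadjusted p under 0.05, all genes 6.17% and 3.62%) and in B cell-like cells 0 of 28 (all genes 0.158% and 0%; 4 and 1 at an unadjusted p under 0.05, all genes 9.56% and 4.02%) were called on day 3 and day 7, and DESeq2 called 0.

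Keeping only cells with Y-linked UMIs and no Xist UMI, the log2 ratios of Phlda3 in HEV-like cells were 1.85, 1.66 and 1.25 and those of Ephx1 were 2.17, 1.41 and 1.89. For Cdkn1a in HEV-like cells they were 1.29, 1.10 and -0.37, so the direction on day 7 turned. Capillary-like cells had Phlda3 ratios of 3.31, 2.44 and 0.86 on the log2 scale, the last from 1 and 5 UMIs. Among these cells 14 members reached 10 UMIs in each capillary-like pair and 0 of them were at least 1.5-fold higher in all 3 (all genes 0.3%). The 4 members counted over all capillary-like cells (Phlda3, Ccng1, Eda2r and Sesn2) were not among the 14, since none reached 10 UMIs in the day 7 pair. Free RNA, read from barcodes under 100 UMIs, held Phlda3 at 17.8 to 29.6 CPM in the Cre-negative and 27.8 to 58.1 CPM in the Cre-positive CD31 libraries. With that profile subtracted at the same assumed 10% of each class, the Phlda3 ratios in HEV-like cells were 2.53, 2.15 and 2.46. Fibroblast marker genes, whose own class held Phlda3 at 50.3 to 78.8 CPM, summed to 485 to 582 CPM in HEV-like cells, with Lum at 0. HEV marker genes moved with the pairs as well, with a summed level of 35211, 31081 and 89953 CPM in Cre-negative and 31127, 18121 and 20765 CPM in Cre-positive HEV-like cells, and their part in the result was not tested.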

How the data were processed

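Lymph node cells of the 12 libraries were measured by droplet 3' RNA sequencing. Per the submitters' processing notes the authors used Cell Ranger 7.0.1 and mm10; the matrix headers name Cell Ranger format 4. The deposited values are UMI counts per gene and barcode. Intron and strand settings are not given in the sources used here. The Cre-positive CD31 matrices and the Cre-negative day 7 CD31 matrix also list an mRFP entry, which was dropped. The listed entries thus differed with the label in the vehicle and day 3 CD31 pairs, and any effect on other counts was not tested. Cells with at least 1000 UMIs, 500 genes and at most 10% mitochondrial counts were kept, and the 0.8% per 1000 cells with the highest Scrublet scores (4.779% to 9.307% of cells) were removed, because the automatic threshold marked under 4 cells in 3 libraries; in 2 CD31 libraries the removed cells had lower median UMIs than the kept ones. Cells were clustered per fraction with scanpy 1.11.5 and leidenalg 0.10.2 (2000 variable genes, 30 components, resolution 1) and named from listed markers; unnamed clusters were left out. Counts were summed per class and library. Tests used edgeR 4.0.16 (quasi-likelihood, Benjamini-Hochberg adjustment over all genes, R 4.3.3). Genotype was tested only outside endothelium, and not in myeloid-like cells of the CD31 libraries. Treatment was tested in endothelial and other classes. DESeq2 1.42.0, other scaling, filters, depth, doublet and Y-linked settings and leaving out libraries were alternatives. Tests were checked on simulated counts. The simulation gave all genes the same fixed spread and held no differences in make-up or sex between libraries. It therefore gives no measure of the power to call members in these data. Every group is 1 library and nothing says how many animals it held. The p-values therefore measure the spread left between libraries after treatment and genotype are fitted as additive terms. A genotype difference that varies with treatment counts as part of that spread. Named were Phlda3, Ephx1, Trp53, Mdm2, Cdkn1a and Ccng1, members at least 1.5-fold apart in all 3 pairs, and members called in a test; a few others were chosen after their values were seen. The members and lists were chosen with earlier results of these data known. Promoter letters come from RefSeq on GRCm38.p6.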

Additional observations from a re-analysis of the deposited data

Results flagged for a closer look

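In 20 cases a member went one way in all 3 pairs of one of 9 pooled classes outside endothelium and the opposite way in all 3 pairs of blood endothelial-like cells. The fibroblast clusters were not part of that count; in the Pi16-led one, Phlda3 and Eda2r were also lower in all 3 pairs and higher in blood endothelium. The difference itself was not tested in any of them. Over these classes this was 8.85% of 226 pairings of a member with a class, beside 1.96% of all genes' pairings. The endothelial side used the contrast that chose the members, so nothing is read from that gap. The fractions are named CD31 and CD45. Values are mean log2 ratios, Cre-positive over Cre-negative. Depth and mitochondrial share were also higher in the Cre-positive CD45 library of each pair, and their part in these values was not tested. Bax, at 0.52 in blood endothelium, was -0.44 in fibroblast-like cells, -0.10 in CD31 B cell-like cells, and -0.21, -0.26, -0.57 and -0.26 in T cell-like, B cell-like, NK cell-like and myeloid-like cells of the CD45 libraries. Dcxr, at 0.67, was -0.23 in fibroblast-like cells and -0.34 and -0.26 in B cell-like and myeloid-like cells of the CD45 libraries. Ei24, at 0.23, was -0.082 in fibroblast-like cells, -0.27 in CD31 T cell-like cells and -0.15 in NK cell-like cells. Ephx1, at 1.01, was -0.66 in pericyte-like cells and -0.16 in CD31 B cell-like cells. Aen, at 0.62, was -0.45 and -0.091 in B cell-like cells of the CD31 and CD45 libraries. Bbc3, at 0.42, was -0.26 in fibroblast-like cells. Phlda3, at 1.73, was -0.47 in myeloid-like cells of the CD31 libraries. Xpc, at -0.17, was 0.098 in CD31 T cell-like cells, and Gadd45a, at -0.23, was 0.31 in myeloid-like cells of the CD45 libraries.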

How the results depend on the processing

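The labels give no replicate numbers, so no pairing by animal or batch was possible. Libraries of one treatment were compared with each other, and treatment (or genotype) is a term of the main fits. The genotype fits are thus blocked by treatment. Of 25 counts of members, 18 were 0, and for these only another 0 counts as kept, so 169 kept of 190 alternative values says little about stability. Of 76 alternative values of the other 7 counts, 50 were within 1.5 times the main one; the cause was not tested. Leaving out libraries, or pairs for genotype, gave 0 to 1 members by genotype in fibroblast-like cells. Calls over all genes moved with them, from 0% to 12.7% on day 3 in HEV-like and 0% to 19.2% in fibroblast-like cells. On day 3 leaving out gave 0 to 9 in HEV-like, 0 to 1 in capillary-like, 0 to 2 in lymphatic, 0 to 9 in fibroblast-like and 0 to 1 in B cell-like cells of the CD45 libraries. On day 7 it gave 0 to 2 in HEV-like, 0 to 2 in capillary-like, 0 to 1 in fibroblast-like and 0 to 2 in B cell-like cells. For the capillary-like, lymphatic and B cell-like cells on day 3, and for all classes on day 7, the share of all genes is not given here. Those leave-out counts are therefore not read against a background. With no filter on low counts the calls were 1 by genotype in myeloid-like cells, 8 and 1 on day 3 and day 7 in HEV-like cells, 1 on day 7 in capillary-like cells, and 1 and 2 on day 3 in T cell-like and B cell-like cells, beside 0.139% to 7.42% of all genes. On day 3 in HEV-like cells RLE size factors, DESeq2 and a minimum of 2000 UMIs each gave 2 (all genes 1.3%, 3.19% and 1.25%). In capillary-like cells on day 3, DESeq2 and Y-linked cells each gave 0; DESeq2 gave no adjusted p for Gdf15. In fibroblast-like cells on day 3, Y-linked cells gave 1 (all genes 4.31%) and Lepr-led cells 0 (0%), and there the change of Plk2 reversed to 0.16.

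Of members higher in all 3 pairs, a fold of 2 left 3 in HEV-like, 2 in capillary-like, 0 in arterial-like, 0 in lymphatic and 3 in all blood endothelial-like cells. The share of all genes at that fold is not given here, so these counts are not read against a background. Y-linked cells left 2 of 28, 0 of 14, 0 of 21, 1 of 30 and 4 of 31 in the same order, with fewer members at 10 UMIs; in capillary-like cells the 4 members counted before were under 10 UMIs on day 7. Within Y-linked cells Cdkn1a on day 7 in all blood endothelial-like cells reversed to -0.22. TMM scaling left 3 in HEV-like cells, and keeping doublets gave 2 in arterial-like cells. These counts too stand without the share of all genes under the same setting and are not read against a background. Leaving out a pair, chosen after seeing the data, gave 6 to 11 in HEV-like (all genes 1.12% to 1.68%), 1 to 6 in arterial-like (0.537% to 1.07%) and 3 to 7 in lymphatic cells (0.652% to 1.44%). Venous-like cells were not run, since no such cluster was found, and Y-linked genotype fits in pericyte-like and NK cell-like cells were not run, since a library held under 20 such cells. Depth limits Perp, Gls2 and Ak1, and Gdf15 in HEV-like cells.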
